A study of Mus musculus with 9 samples.

Results

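The mRNAs of 8 factors of decapping and 5′ to 3′ decay were examined in RNA recovered with Roquin: Dcp2, Dcp1a, Dcp1b, Edc3, Edc4, Patl1, Ddx6 and Xrn1. They were chosen by gene symbol with earlier results of these data known, as were the gene lists set beside them. The shares of these genes called are therefore given as description only. All 8 were found among the 20467 named genes of the deposited count table and passed the filter on low counts. Every library came from the mouse macrophage line RAW264.7 after 2 h with lipopolysaccharide (LPS) at 100 ng/ml. RNA was sequenced from 3 Roquin immunoprecipitates (Roquin IP), for which rabbit polyclonal antibodies were held on protein A/G beads, from 3 mock pulldowns with beads but without antibody (control IP), and from 3 samples of lysate taken before the IP (input). Since the mock pulldowns had no antibody, RNA held by the antibodies through other proteins cannot be told apart from RNA held by Roquin. No untreated cells were analysed here.

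Cytoplasmic mRNA decay usually begins with the shortening of the poly(A) tail, after which the 5′ cap is removed and the body of the mRNA is degraded from its 5′ end. Dcp2 is the enzyme that cuts the cap, Dcp1a and Dcp1b are its activators, and Edc3, Edc4, Patl1 and the helicase Ddx6 are scaffolds and enhancers that bring it to mRNAs. Xrn1 is the exonuclease that then degrades the uncapped RNA. Roquin binds stem-loops in mRNAs such as that of the cytokine Tnf and promotes their decay. The Roquin-1 protein has been reported to bind the Edc4 and Ddx6 proteins. The libraries measure the mRNAs of these factors, not the proteins.

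Of the 8 mRNAs, Patl1 and Dcp2 were higher in Roquin IP than in either background, and the other 6 passed the test in no direction. Over control IP, Patl1 was 5.34-fold and Dcp2 2.49-fold higher. The 2 of 8 called higher over control IP stand beside 3.76% of the 9567 genes tested, and the 2 of 8 called higher over the input beside 5.45%. By edgeR with TMM factors 0 of the 8 were called lower in either comparison, beside 0% of genes over control IP and 2.79% over the input, which makes 8.24% called there in either direction. At an unadjusted p under 0.05, 2 of the 8 were higher and 0 lower over control IP, beside 7.93% and 2.13% of genes, and DESeq2 called 0 of the 8 lower. Over the input, 2 were higher and 1, Edc4, was lower at that threshold, beside 12.1% and 10.7%. Scaling by library size alone, which shifted all genes, called 2 of the 8 lower over control IP and 4 over the input, with 3708 and 2668 of all genes lower. Both genes were among the 308 genes (3.22%) called higher over both backgrounds. Those comparisons share the Roquin IP libraries.

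Library totals over the named genes ran from 1799390 reads in the input to 12975767 in the Roquin IPs. Levels are given in CPM, the count scaled to a TMM-adjusted library of 1000000 reads, and 1 CPM stood for 2.02 to 11.6 counts. A count of 0 allows up to 3 counts, or 0.258 to 1.49 CPM, for counting error only. Rc3h1, the gene of Roquin-1, was at 34887, 27570.1 and 24680 CPM in the Roquin IPs, against 374, 283 and 226 in the control IPs and 320.5, 314 and 578 in the input. Tnf had 733448, 3535599 and 2275585 counts in Roquin IP 1, 2 and 3, whose totals were 3547517, 12975767 and 12898468. It had 7679, 8989 and 12132 counts in the control IPs. Scaling by library size alone leaves these reads in the size, and their part in the shift of all genes was not tested. Of 8 macrophage markers, 7 matched by symbol and all 7 had counts in every group, with summed levels of 1228 to 2014 CPM in the Roquin IPs, 986 to 1515 in the control IPs and 1194 to 1713 in the input. Markers of T cells, B cells, fibroblasts and epithelial cells summed to at most 0.688 CPM in any library.

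The deposited table carries the authors' prediction of a constitutive decay element (CDE), the stem-loop class bound by Roquin, and gives all 8 genes as without one. That class held 98.6% of the genes tested, and 3.49% of it was called higher in the Roquin IPs over control IP. Among the 37 genes tested with a conserved element in the 3′ untranslated region (3′ UTR), 62.2% were. The longest annotated 3′ UTR of each gene (GENCODE M21, GRCm38, transcript strand only) was searched for the CDE pattern, which is TTC, a pyrimidine, a purine, a pyrimidine and GAA. Xrn1 alone of the 8 matched, as did 6.01% of the 9446 genes with a 3′ UTR and 18% of the 500 closest to Xrn1 in 3′ UTR length. A looser pattern, chosen after these matches were seen, asked for 6 paired bases around a loop of a pyrimidine, a purine and any base. Patl1, Edc4, Dcp1b and Dcp2 matched it, as did 19.0% of all genes with a 3′ UTR.

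The sites are shown to set the members beside 2 mRNAs that the deposited table lists with a conserved element, Tnf and Rc3h1, with the 3 loop bases in capitals and the uninterrupted paired stem around them in lower case.
Tnf: gttttcTGTgaaaac
Rc3h1: aacttcTGTgaagtt
Xrn1: ttcCGTgaa
Patl1: aaaataaatTGAatttatttt
Edc4: tgttttTGAaaaaca
Dcp1b: tattcaCAAtgaata
The Tnf site lies at chr17:35199585-35199599 on the minus strand and matches both patterns. The other sites are on the plus strand: Rc3h1 at chr1:160971660-160971674, also with both patterns, Xrn1 at chr9:96055589-96055597, Patl1 at chr19:11944542-11944562, Edc4 at chr8:105893156-105893170 and Dcp1b at chr6:119220902-119220916. The Xrn1 site pairs over 3 bases on each side of its loop, against 6 at the Tnf and Rc3h1 sites shown. A second match of Rc3h1 to the CDE pattern, at chr1:160968042-160968050, also pairs over 3 bases. The Patl1 site pairs over 9 bases, all A and T, and its loop ends in A, where the CDE pattern has a pyrimidine. The loops of the Edc4 and Dcp1b sites also end in A. At the Patl1, Edc4 and Dcp1b sites the loop is not flanked by the TTC and GAA of the CDE pattern. Tnf had 2 matches to the looser pattern and Rc3h1 had 4, not all of them shown. Among the 500 genes nearest in 3′ UTR length, the looser pattern was held by 19.0% for Patl1 (1626 to 1859 bases), 4.8% for Edc4, 19.2% for Dcp1b and 52.4% for Dcp2. The 2 matches of Dcp2 to the looser pattern are not shown here. A match describes letters in the annotated sequence and shows no binding.

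Patl1, a scaffold of the Pat1 family that links the Lsm1-7 ring at the 3′ end to the decapping enzyme, had 278, 220.1 and 265 CPM in Roquin IP 1, 2 and 3. It had 26.2, 64.3 and 51.7 CPM in the control IPs and 134.4, 54.6 and 71.9 CPM in the input. Every Roquin IP library lay above every control IP library, as for 10.7% of the genes tested, and above every input library, as for 16.5%. The gene spans chr19:11912399-11945091 on the plus strand (GENCODE M21, GRCm38), and its exons overlap no other annotated gene. Means were 254 ± 30.3 CPM in the Roquin IPs, 47.4 ± 19.4 in the control IPs and 87.0 ± 42.0 in the input (SD, n = 3 each). Against control IP the log2 fold change was 2.42 (SE 0.39, edgeR quasi-likelihood test, Benjamini-Hochberg adjusted p = 0.00117), a rank of 183 from the top of 9567 genes. Same-numbered Roquin IP and control IP libraries differed by 10.6-, 3.42- and 5.12-fold. The call held with each of the 9 libraries left out in turn, with log2 fold changes from 2.13 to 2.69 and edgeR adjusted p from 0.000745 to 0.00531.

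Against the input, Patl1 was 2.92-fold higher in Roquin IP (log2 fold change 1.55, SE 0.38, edgeR adjusted p = 0.0222). With the replicate number as a block, the log2 fold change was 1.57 (edgeR adjusted p = 0.00861). In fits without the block, the call ended without Roquin IP 1 (edgeR adjusted p = 0.0792), Roquin IP 3 (0.0642), Input 2 (0.102) or Input 3 (0.0754). The log2 fold change was 1.30 to 2.01 over all 9 fits that left out 1 library, and such fits were not run with the block. The call also ended with library size alone in place of TMM factors (0.81, edgeR adjusted p = 0.130). In control IP against the input, Patl1 had a log2 fold change of -0.87 (95% interval -1.67 to -0.06) that did not pass (edgeR adjusted p = 0.215). The deposited table of the authors gives Patl1 a Roquin IP ratio over control IP of 5.46 with a p-value of 3.1e-05, whose adjustment no source used here states.

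**Figure D1:**
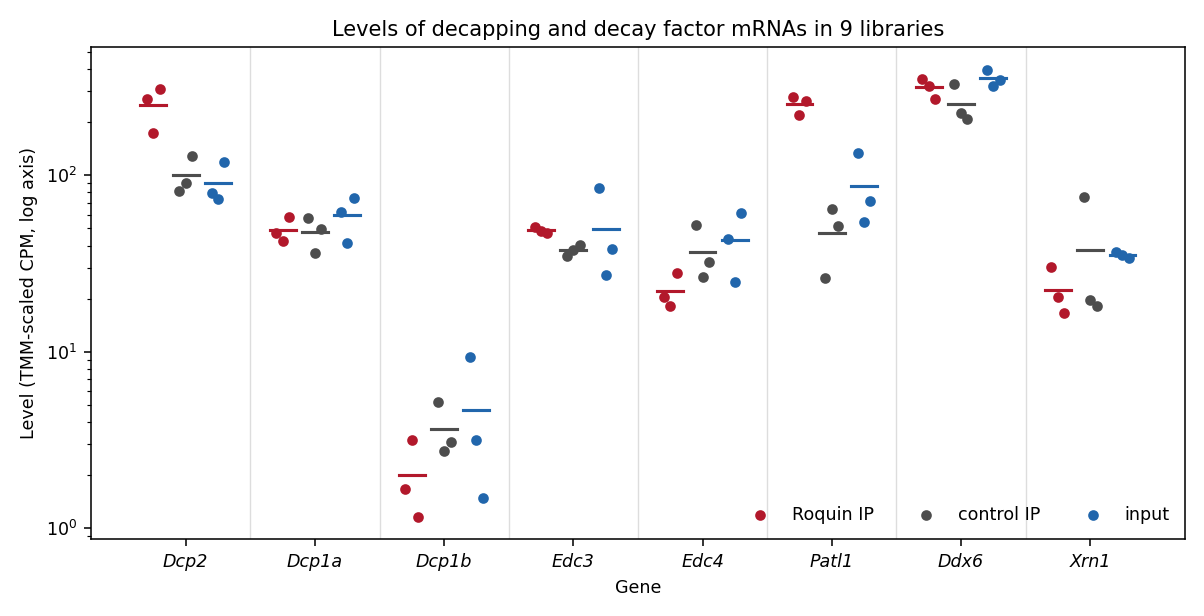
Levels of the 8 mRNAs in TMM-scaled CPM on a log axis, with 1 point per library and a bar at the mean of each group (n = 3). The Roquin IP points of Patl1 (220.1 to 278 CPM) and Dcp2 (174 to 307 CPM) lie above all points of control IP and input, and control IP 1 stands apart for Xrn1 at 74.9 CPM.

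Dcp2, the catalytic subunit, had 270.1, 174 and 307 CPM in the Roquin IPs, against 81.9, 90.5 and 129 CPM in the control IPs and 79.8, 73.2 and 119 CPM in the input. All Roquin IP libraries lay above all others, beside 10.7% of genes that did so over control IP and 16.5% over the input. The control IP and input libraries overlapped. Means were 250.2 ± 68.6 CPM in the Roquin IPs, 100.4 ± 24.9 in the control IPs and 90.5 ± 24.5 in the input (SD, n = 3 each). Over control IP this made a log2 fold change of 1.31 (SE 0.31, edgeR adjusted p = 0.0258), and same-numbered libraries differed by 3.30-, 1.92- and 2.38-fold. With the replicate number as a block, the log2 fold change was 1.30 (SE 0.20, edgeR adjusted p = 0.00091). In fits without the block, the call ended without Roquin IP 1 (edgeR adjusted p = 0.101), Roquin IP 3 (0.146), control IP 1 (0.0848) or control IP 2 (0.146). Log2 fold changes were 1.14 to 1.54 over the 9 such fits that left out 1 library. With library size alone in place of TMM factors the call also ended (log2 fold change 0.49, edgeR adjusted p = 0.258). That scaling put the median of all genes at -0.96, against -0.12 with TMM factors. Relative to that median, Dcp2 was at 1.44 with TMM factors and 1.45 with library size alone, and Patl1 at 2.54 and 2.53.

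Over the input, Dcp2 was 2.77-fold higher in Roquin IP (log2 fold change 1.47, SE 0.31, edgeR adjusted p = 0.0105). With the block, the edgeR adjusted p was 0.000371. In fits without the block, the call ended without Roquin IP 3 (edgeR adjusted p = 0.0553) or Input 2 (0.0637) and with library size alone (0.122). In control IP against the input, Dcp2 differed by 0.15 on the log2 scale (95% interval -0.51 to 0.82, edgeR adjusted p = 0.826). The deposited table of the authors gives Dcp2 a ratio of 2.53 and a p-value of 0.209, so of the 8 genes Patl1 alone is under 0.05 there. The longest transcript of Dcp2 shares a stretch of 114 bases, 1.32% of its length, with transcripts of 3 other genes at 95.6% identity. The other 6 have deposited ratios from 0.55 to 1.32, each with a p-value of 1.

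**Figure D2:**
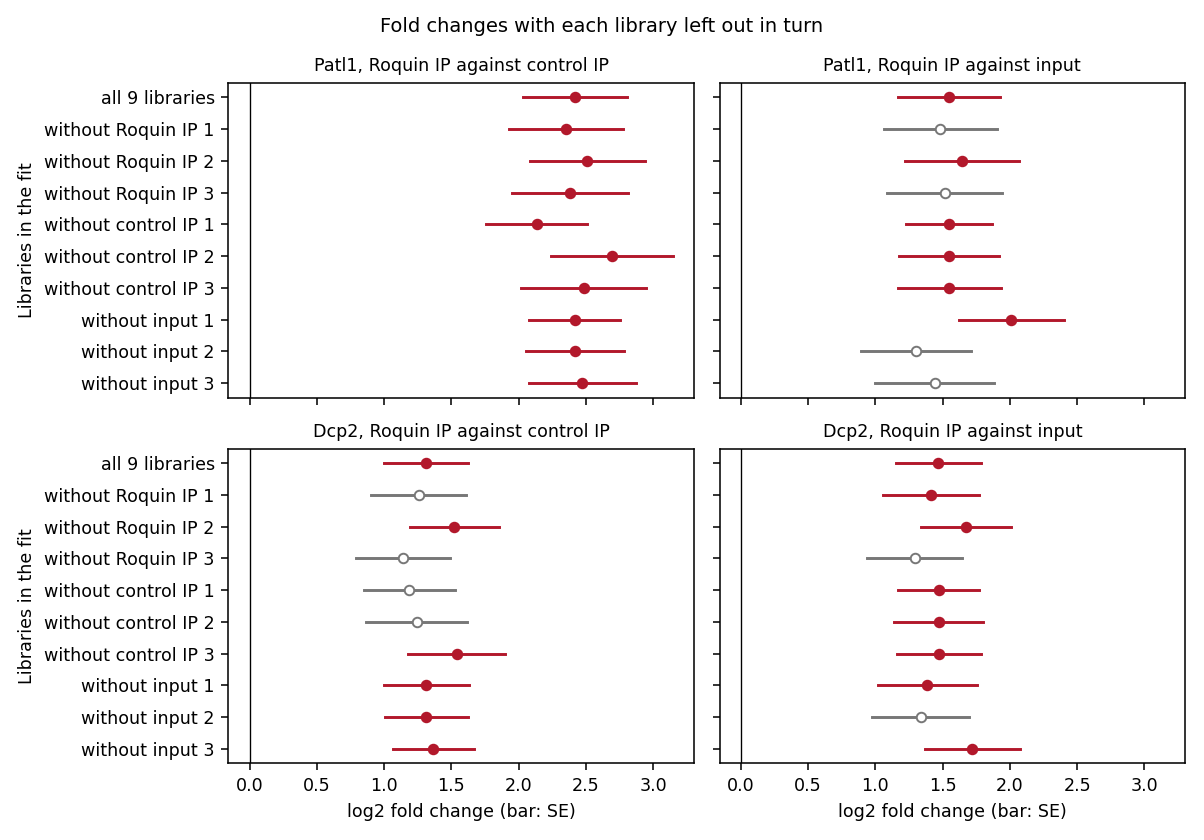
Log2 fold changes (points) with SE (bars) of Patl1 and Dcp2 over control IP and over the input, fitted with all 9 libraries and with each left out; filled points have an edgeR adjusted p under 0.05. Patl1 over control IP is filled in every row (2.13 to 2.69), while each of the other panels has open points.

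Of the activators of Dcp2, Dcp1a had 47.4, 42.7 and 57.8 CPM in the Roquin IPs, against 57.3, 36.4 and 49.9 CPM in the control IPs and 62.3, 41.1 and 74.9 CPM in the input. The 3 groups overlapped. Over control IP it had a log2 fold change of 0.05 (95% interval -0.60 to 0.69, edgeR adjusted p = 0.971), so the interval of the fold change ran from 0.659 to 1.62. Dcp1b, the paralog of Dcp1a, had the fewest reads, with 4, 25 and 12 counts in the Roquin IPs, 17, 14 and 36 in the control IPs and 23, 8 and 3 in the input. The groups overlapped, and at these counts the interval of its fold change over control IP ran from 0.19 to 1.67 (edgeR adjusted p = 0.771), so a difference within it was not detectable at this depth.

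Among the enhancers, Edc3, a scaffold that binds Dcp2 and Ddx6, had 50.8, 48.4 and 47.3 CPM in the Roquin IPs, against 35.0, 37.6 and 40.1 CPM in the control IPs. Roquin IP lay above control IP in all libraries, as for 10.7% of the genes tested, with 3 of the 8 genes (Edc3, Dcp2 and Patl1) in that class. The difference did not pass (log2 fold change 0.37, SE 0.36, edgeR adjusted p = 0.791). The input had 84.3, 27.3 and 38.2 CPM, with Input 1 apart from the others. Without Input 1 the log2 fold change over the input was 0.58 (edgeR adjusted p = 0.292), against -0.03 (0.970) with all libraries. Of the annotated exons of Edc3, 22.1% overlap Clk3 on the other strand, and no source used here states strand handling, so its counts are uncertain.

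Edc4, a large scaffold between Dcp1 proteins and Dcp2, had 20.6, 18.1 and 28.1 CPM in the Roquin IPs, against 52.1, 26.5 and 32.4 CPM in the control IPs and 43.6, 24.9 and 61.0 CPM in the input. Its values in the Roquin IPs overlapped both backgrounds, while same-numbered libraries had ratios of 0.395, 0.683 and 0.866 over control IP and 0.472, 0.726 and 0.460 over the input. The log2 fold changes were -0.72 over control IP (edgeR adjusted p = 0.586) and -0.95 over the input (95% interval -1.76 to -0.13, adjusted p = 0.153). With the replicate number as a block they were -0.69 and -0.88 (edgeR adjusted p = 0.239 and 0.0504). With library size alone, both passed the test as lower (-1.51 and -1.65, edgeR adjusted p = 0.0179 and 0.00727), under the shift of all genes given above. Of its exons, 8.33% overlap Nrn1l on the same strand, so its counts are uncertain.

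Ddx6, the helicase that represses translation and activates decapping, had 351, 322 and 272 CPM in the Roquin IPs, against 328, 227 and 208 CPM in the control IPs and 397, 321 and 348 CPM in the input. The groups overlapped, with log2 fold changes of 0.31 over control IP (95% interval -0.26 to 0.88, edgeR adjusted p = 0.767) and -0.17 over the input (-0.75 to 0.40, adjusted p = 0.745).

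Xrn1, the exonuclease, had 30.2, 20.4 and 16.5 CPM in the Roquin IPs, against 74.9, 19.8 and 18.2 CPM in the control IPs and 36.7, 35.2 and 34.2 CPM in the input. Roquin IP overlapped control IP and lay below the input in all libraries, as for 14.3% of genes. Neither difference passed (log2 fold changes -0.75 and -0.68, edgeR adjusted p = 0.669 and 0.440). Control IP 1 decided the first: without it the log2 fold change over control IP was 0.21 (adjusted p = 0.889), and that of control IP over the input was -0.89 (0.133) in place of 0.07 (0.954). Exons of Xrn1 overlap the antisense genes Gm16794 and C78334 over 0.99% and 3.25% of their length. Stretches of its longest transcript recur in 7 other genes, which include these antisense genes. The longest stretch per gene was 1.05% to 1.73% of that transcript, so the counts of Xrn1 are uncertain. Xrn1, the gene with a match to the CDE pattern, was not called in any of the 3 comparisons with TMM factors. With library size alone it was called lower over control IP (-1.54, edgeR adjusted p = 0.0221) and over the input (-1.45, 0.0255), under the same shift of all genes.

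**Figure D3:**
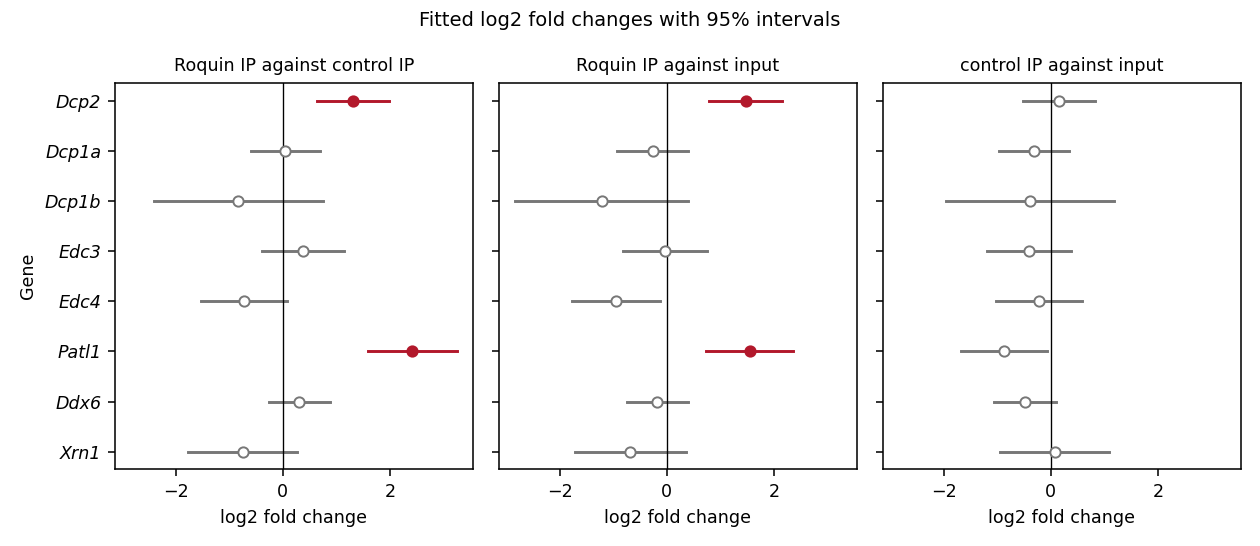
Fitted log2 fold changes of the 8 genes with 95% intervals in 3 comparisons; filled red points have an edgeR adjusted p under 0.05. Patl1 and Dcp2 are filled in both Roquin IP panels (2.42 and 1.31 over control IP, 1.55 and 1.47 over the input), and no gene is filled in control IP against the input.

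Across the 8 genes, the median log2 fold change was 0.18 over control IP, beside -0.12 for all genes tested, and -0.22 over the input, beside -0.01. In control IP against the input 0 of the 8 passed by edgeR, with a median of -0.35 beside 0.02, and DESeq2 also called 0. The background was 0.815% of genes higher and 0.303% lower, or 1.12% in either direction. At an unadjusted p under 0.05, 0 were higher and 1, Patl1, was lower, beside 10.8% and 9.53% of genes. All 8 overlapped between control IP and the input, where 12.2% of genes lay above and 10.8% below without overlap.

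Levels were set between genes per kilobase of annotated exon. In the input, Ddx6 was highest at 44.2 ± 4.77 CPM per kilobase, above Patl1 at 20.3 ± 9.79 with no overlap of the libraries (SD, n = 3 each). Dcp2 (10.4 ± 2.82), Edc3 (8.6 ± 5.21), Edc4 (7.85 ± 3.28) and Dcp1a (7.22 ± 2.07) followed with overlapping libraries, also between Patl1 and Dcp2, and their order changed with the longest transcript as length. Xrn1 was at 1.90 ± 0.0658 and Dcp1b at 0.737 ± 0.655 CPM per kilobase, again without overlap. In bulk RNA, fewer cells with an mRNA and less of it per cell cannot be told apart. In Roquin IP, Patl1 came first at 59.3 ± 7.06 CPM per kilobase, above all libraries of Ddx6 (39.2 ± 4.94), followed by Dcp2 at 28.8 ± 7.88. With the longest transcript as length, the libraries of Patl1 (52.2 to 65.9) and Ddx6 (44.9 to 57.8) overlapped in the Roquin IPs.

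The partners of these factors were described from a list of 25 genes: the Lsm1-7 ring, Lsm14a and Lsm14b, the 4E-T gene Eif4enif1, other decapping enzymes and their coactivators, cap-binding proteins, the Pan2-Pan3 deadenylase, the nuclear exonuclease Xrn2 and Patl2. Of the 24 tested, Lsm2 alone was called over control IP by edgeR with TMM factors, beside 3.76% of all genes, and the median log2 fold change was -0.09 beside -0.12 for all genes. With TMM factors, 2 of the 24 were called higher in Roquin IP over the input and 1 lower, beside 5.45% and 2.79% of all genes. In control IP over the input, 1 was called higher and 1 lower, beside 0.815% and 0.303%. With library size alone 11 of the 24 partners were called lower over control IP, beside 3708 of all 9567 genes. Without control IP 1, Pnrc2, a decapping coactivator gene, was also called higher. Lsm2, a subunit of the ring that Patl1 binds and also of the spliceosomal Lsm2-8 ring, had 443, 158 and 344 CPM in the Roquin IPs, against 67.6, 37.8 and 37.1 CPM in the control IPs and 35.4, 39.9 and 55.0 CPM in the input. All Roquin IP libraries lay above the rest, beside 10.7% of genes that did so over control IP and 16.5% over the input. The log2 fold change of Lsm2 was 2.73 over control IP and 2.86 over the input (SE 0.40 each, edgeR adjusted p = 0.000486 and 0.000380). The call over control IP held in all 9 fits that left out 1 library (edgeR adjusted p 9.34e-05 to 0.00546). The authors' deposited table gives Lsm2 a ratio of 6.68 and a p-value of 0.104. Its longest transcript shares stretches of 108 to 145 bases at 95% identity or more with transcripts of 9 other genes, so part of its count is uncertain.

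The other subunits of the Lsm1-7 ring did not pass over control IP, with log2 fold changes from -0.69 for Lsm7 to 1.08 for Lsm3 (edgeR adjusted p = 0.732 and 0.476). Lsm4 was instead higher on beads with and without antibody: it had 132, 63.2 and 108 CPM in the Roquin IPs, 161, 105 and 196 in the control IPs, and 29.3, 28.9 and 32.2 in the input. Its log2 fold change was 1.74 in the Roquin IPs over the input (edgeR adjusted p = 0.00537) and 2.35 in control IP over the input (0.0166), and the call in control IP ended without Input 1 (0.0736) or Input 2 (0.0900). With library size alone the call in Roquin IP ended (1.01, edgeR adjusted p = 0.0507).

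Xrn2 was lower than the input in both IPs. It had 45.7, 47.7 and 53.0 CPM in the Roquin IPs, 64.3, 58.6 and 68.6 CPM in the control IPs and 147, 159 and 135 CPM in the input. The log2 fold change was -1.59 in the Roquin IPs over the input (edgeR adjusted p = 0.000944) and -1.20 in control IP over the input (0.0342), and the call of control IP ended in 8 of the 9 fits that left out 1 library and with library size alone (0.0879). The lowest partner over control IP was Dom3z, an enzyme that removes aberrant caps, at -0.76 (edgeR adjusted p = 0.678). Patl2, the paralog of Patl1, had 1 count over all 9 libraries and was not tested.

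**Figure D4:**
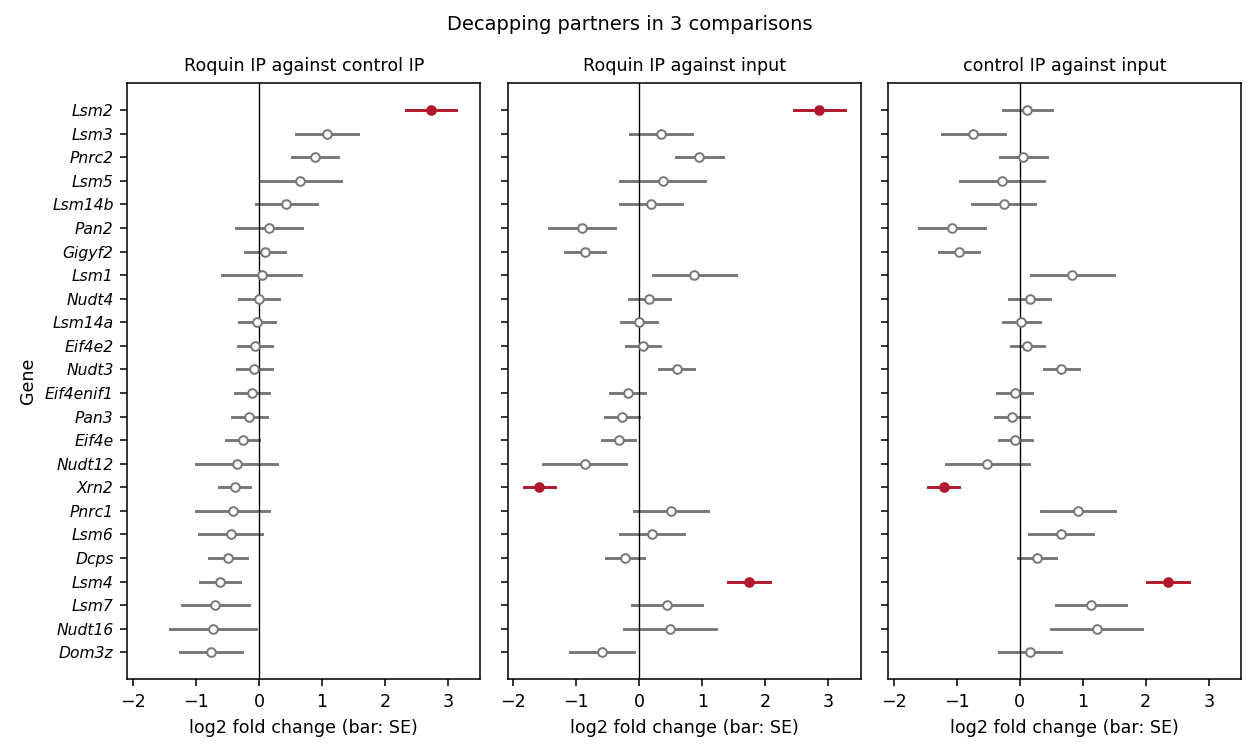
Log2 fold changes (points) with SE (bars) of the 24 decapping partners tested, ordered by Roquin IP over control IP; filled red points have an edgeR adjusted p under 0.05. Lsm2 is filled in both Roquin IP panels (2.73 and 2.86), Lsm4 in both comparisons with the input (1.74 and 2.35), and Xrn2 is filled below 0 in the same comparisons (-1.59 and -1.20).

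Other decay genes were set beside the 8. Of 18 genes of 3′ to 5′ decay (the exosome, Dis3 family and Ski complex), 0 were called by edgeR over control IP, with a median log2 fold change of -0.27. A CCR4-NOT list of 14 measured genes also held Tob1, Tob2, Btg1 and Btg2. Of these 14, Cnot2 and Cnot7 were called over control IP, with log2 fold changes of 1.95 and 1.93 (edgeR adjusted p = 0.000652 and 0.000267). The median of the list was 0.22. Over all genes, 3.76% were called over control IP and the median was -0.12. The difference between these lists and the 8 genes was not tested.

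**Figure D5:**
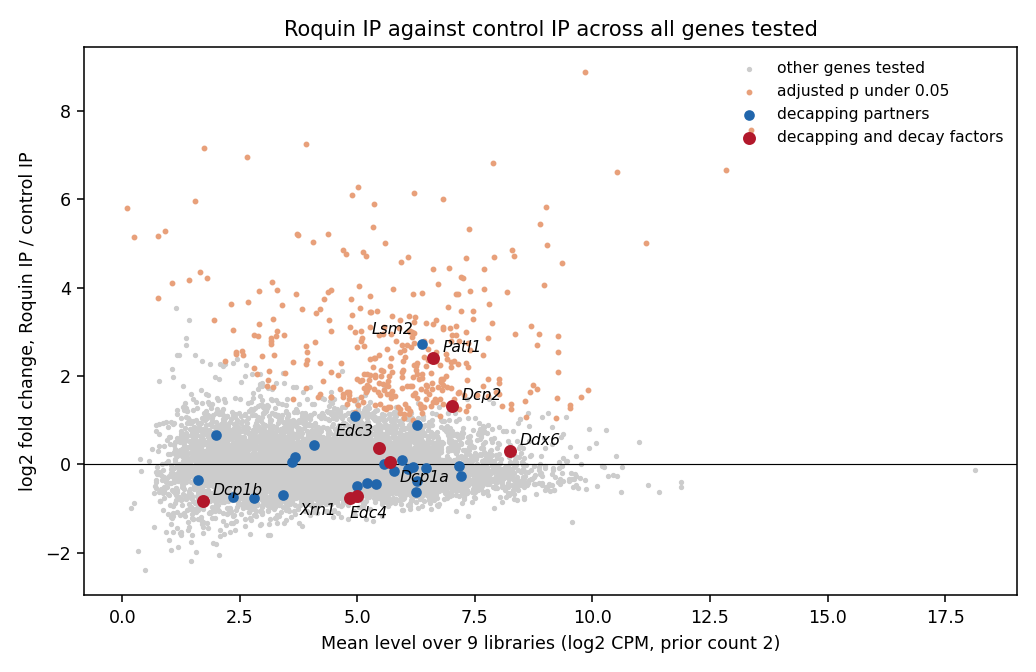
Log2 fold change of Roquin IP over control IP against the mean level of 9567 genes, with the 8 factors in dark red, their partners in blue and genes with an edgeR adjusted p under 0.05 in orange. Patl1 (2.42), Dcp2 (1.31) and Lsm2 (2.73) lie among the orange points, and the other 6 factors lie within the grey cloud between -0.83 and 0.37.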

How the data were processed

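The deposited table gives, per the file headers, raw read counts per gene for 9 libraries, and the deposited ratio of Roquin IP to control IP and its p-value were made by the authors. The header names that ratio as log2, but its values are linear, since none is negative. The submitters' processing notes name CASAVA 1.8.2, BWA and DESeq 1.8.3. For build, annotation and strand use, the sources used here give nothing. The 7480 entries without a symbol were left out. Counts of all named genes were fitted with edgeR 4.0.16 in R 4.3.3 (quasi-likelihood F test, TMM factors, filterByExpr with a minimum count of 10, all 9 libraries, group as the only term), which left 9567 genes. A gene was called where its Benjamini-Hochberg adjusted p, over all genes tested, was under 0.05. Intervals are at 95%. The code was tested on simulated data. Replicates are biological, per the series' design text. Same-numbered libraries deviated together (r of deviations from group means across genes 0.152 to 0.580 in 9 of 9 pairs), so the numbers were taken as pairs. The main fit and the fits with 1 library left out have no term for the pairs. The fit with the number as a block is given in the closing section. No libraries were duplicates (chi-square per degree of freedom 13.9 to 117). Sequences, exon lengths and 3′ UTRs came from GENCODE M21, and shared stretches from BLAST 2.17.0 (identity of 95% or more over at least 100 bases). Alternatives were RLE factors, library size alone, DESeq2 1.42.0, no count filter, Tnf and Lars2 left out, only the compared groups, the block and each library left out. The members and lists were chosen with earlier results of these data known. Named besides the 8 genes were partners called in any comparison, the highest and lowest partner in each, listed decay genes called over control IP, and the gene most like each member. Patl2, Lsm3, Lsm7, Pnrc2 and the library-size values were chosen after their values were seen. The intervals come from the edgeR fit and include the spread between libraries. The floors rest on counts and cover counting error only, and reads without molecular identifiers are not independent molecules.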

Additional observations from a re-analysis of the deposited data

How the results depend on the processing

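Depth limits Dcp1b most, with 3 to 36 counts per library, and with 3 libraries a group the calls of Dcp2 and of Patl1 over the input ended in some fits with 1 library left out, which also leave fewer libraries to test. The cause of the changes below was not tested. The fit with the replicate block changed no call of the 8 genes. Patl1 was at 2.38 over control IP and 1.57 over the input (edgeR adjusted p = 0.000687 and 0.00861). Dcp2 was at 1.30 and 1.47 in the same comparisons (edgeR adjusted p = 0.00091 and 0.000371). The fits that left out 1 library had no block. Under the block, Edc3 over the input was at 0.068 and Xrn1 in control IP over the input at -0.20, both with the sign changed and not called, and 2 partners in place of 1 were lower in either IP over the input. The block called 528 genes higher and 11 lower over control IP (360 and 0 without it). It called 956 higher and 769 lower in Roquin IP over the input (521 and 267), and 636 and 553 in control IP over the input (78 and 29).

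With library size alone, which shifts all genes, 1 of the 8 genes was higher and 2 lower over control IP, and 0 higher and 4 lower over the input. Over control IP, Dcp2 was at 0.49, Dcp1a at -0.77, Edc3 at -0.47, Ddx6 at -0.52, Edc4 at -1.51 and Xrn1 at -1.54, the last pair called. Over the input, Patl1 was at 0.81 and Dcp2 at 0.76, not called, while Dcp1a (-0.99), Ddx6 (-0.94), Edc4 (-1.65) and Xrn1 (-1.45) were called. That scaling called 11 partners lower over control IP, 1 higher and 7 lower in Roquin IP over the input, and 0 lower in control IP over the input. Of all genes it called 3708 lower over control IP (257 higher), 259 higher and 2668 lower in Roquin IP over the input, and 10 lower in control IP over the input. DESeq2 called 6 genes lower over control IP, 535 lower in Roquin IP over the input, and 398 higher and 390 lower in control IP over the input, with 2 partners lower. Without a count filter 21 genes were lower over control IP, 416 lower in Roquin IP over the input, and 335 higher and 229 lower in control IP over the input. With only the groups compared, control IP over the input had 2 genes higher and 1 lower, and 0 partners lower.

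Leaving out 1 library gave 1 to 2 of the 8 genes higher over control IP and 0 to 2 over the input. Partners higher over control IP were 1 to 2, and in control IP over the input 0 to 1 were higher and 0 to 2 lower. Genes called were 276 to 378 higher and 0 to 3 lower over control IP, 298 to 679 and 30 to 452 in Roquin IP over the input, and 0 to 185 and 0 to 86 in control IP over the input. Log2 fold changes over control IP were 1.14 to 1.54 for Dcp2, -0.12 to 0.19 for Dcp1a and -1.09 to 0.21 for Xrn1. Over the input they were 1.30 to 2.01 for Patl1, 1.29 to 1.72 for Dcp2 and -0.33 to 0.58 for Edc3. In control IP over the input they were -0.89 to 0.41 for Xrn1, -0.068 to 0.35 for Dcp2, -0.82 to 0.60 for Dcp1b, -0.70 to 0.21 for Edc3, -0.54 to 0.071 for Edc4, -0.21 to 0.29 for Lsm2 and -0.11 to 0.52 for Dom3z.

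With the longest transcript as length, Dcp1a was at 8.84 CPM per kilobase in the Roquin IPs, 8.59 in the control IPs and 10.7 in the input, Ddx6 was in the same order at 51.9, 41.9 and 58.6, Xrn1 at 2.18 in Roquin IP and 3.45 in the input, and Dcp1b at 0.872 in control IP. RLE factors, and Tnf and Lars2 left out, changed no call of the 8 genes. The CDE pattern was in 1 of the 8 genes and the looser pattern in 4, also when any annotated 3′ UTR was searched.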

Other observations

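For each of the 8 genes, the gene with the most similar profile was sought by Pearson's r of log2 CPM over the 9 libraries, which fall into 3 groups and share their scaling, so r is given as a description and as the highest of all genes tested. Naa30, an N-terminal acetyltransferase gene, was closest to Dcp2 (r = 0.98), and stood 0.97 higher over control IP on the log2 scale, which did not pass (edgeR adjusted p = 0.122). Tmem2, a transmembrane protein gene, was closest to Patl1 (r = 0.98) and was called over control IP (3.85, edgeR adjusted p = 0.000816). The closest to Ddx6 was Chd7 (r = 0.98), to Edc4 Polr1a (0.99), to Xrn1 Bank1 (0.98), to Dcp1a Zfp407 (0.97), to Edc3 Pcyt1a (0.95) and to Dcp1b Nkiras1 (0.94), and none of these 6 was called over control IP.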
